A study of Mus musculus with 6 samples.

Results

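Cyclin-dependent kinase (CDK) inhibitors of the Cdkn1 and Cdkn2 families were examined in the mouse whole uterus on postnatal day 21. The members are the 3 Cdkn1 genes (Cdkn1a, Cdkn1b, Cdkn1c) and the 4 Cdkn2 genes (Cdkn2a, Cdkn2b, Cdkn2c, Cdkn2d), taken by gene symbol, 7 of the 20637 genes listed. The family was selected on the FPKM of its members in these same libraries, after a large Cdkn1a difference between genotypes had been seen, so the differences of its members between genotypes are given as descriptions, without tests. Poly(A) RNA was sequenced in 3 whole-uterus libraries of Nat10 f/f females, which carry floxed Nat10 alleles and serve as controls, and in 3 libraries of Nat10 d/d females, in which Nat10 had been deleted. Both groups were killed at the same age. The labels do not give the Cre driver, the deleted exons, the strain, the cells that lost Nat10 or whether animals were pooled, and they give no batch. Nothing in them says that replicates are separate animals, so the spread between libraries may in part be technical.

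CDK inhibitors bind CDKs or their cyclin complexes and hold the cell cycle in check. The Cdkn1 genes encode the Cip/Kip proteins p21 (Cdkn1a), p27 (Cdkn1b) and p57 (Cdkn1c), which bind cyclin-CDK complexes. The Cdkn2 genes encode the INK4 proteins p16 (Cdkn2a), p15 (Cdkn2b), p18 (Cdkn2c) and p19 (Cdkn2d), which bind the D-type cyclin partners Cdk4 and Cdk6. Cdkn1a is a classic transcriptional target of the tumour suppressor p53, Cdkn1c is imprinted, and Cdkn2a also encodes Arf, a protein that stabilises p53 by restraining Mdm2. The proteins p21 and p27 are regulated to a large degree by degradation, which RNA levels do not show. In the uterus, stromal and epithelial cells enter and leave the cell cycle under steroid hormones.

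All levels below are FPKM, fragment counts divided by transcript length and by library depth, so levels of different genes can be compared per length. Differences are on the log2(FPKM + 1) scale, which understates changes of weakly expressed genes, and groups are said not to overlap where every library of one lies above every library of the other. Between 15431 and 15680 genes were above 0 in each library, and pairs of libraries correlated at 0.939 to 0.986. Relative depth was estimated from the ratio of low values to those of Nat10 f/f replicate 1, over 62 to 93 genes a library. By that estimate it differed by at most 1.259 times. Nat10, which encodes an RNA cytidine acetyltransferase, stood at 13.2, 16.4 and 9.95 FPKM in Nat10 f/f replicates 1 to 3 and at 5.57, 5.23 and 5.53 FPKM in Nat10 d/d replicates 1 to 3. The deleted group was thus at 41.4% of the control mean with no overlap (log2 difference -1.11, SE 0.17), at the smallest two-sided p, 0.1, that an exact permutation test of 3 libraries against 3 can give. The adjusted p for Nat10 was 0.669 in limma. Nat10 d/d replicate 2 stood apart: all 19 tested genes of the proliferation list were highest in that library, beside 3810 of all 12640 tested genes. The members' values and the list counts that rest on Nat10 d/d replicate 2 are therefore also given without it. Sums over the 12 marker lists of uterine cell types, neighbouring tissues and handling overlapped between the groups for all 12. Ovary sums did so narrowly, at 34.386 to 36.6 FPKM in Nat10 f/f and 23.9 to 34.393 in Nat10 d/d libraries. Epithelial marker sums were 658 to 781 FPKM in Nat10 f/f and 760 to 864 in Nat10 d/d libraries, and stromal sums were 3765 to 4338 and 3098 to 4241. With Nat10 d/d replicate 2 left out, 3 of the 12 sums no longer overlapped. Epithelial sums in Nat10 d/d replicates 1 and 3 (851 and 864) lay above every control, whereas stromal sums (3167 and 3098) and oviduct and ciliated cell sums (154 and 143, beside 248 to 272 in controls) lay below every control. Of the 4 genes in the oviduct and ciliated cell list, 1 was at 1 FPKM or more in every library, and Foxj1 was at 0 in at least 1. Other libraries stood apart in single lists: Nat10 f/f replicate 1 had the highest fat sum (51.0, beside 0.979 to 9.88 in the others) and blood sum (5581, beside 709 to 2629), and Nat10 d/d replicate 3 the highest sum of immediate early genes (223, beside 143 to 161). Nat10 f/f replicate 1 was also the control with the highest Cdkn2c and Cdkn2d and the lowest Cdkn1a. The part of cell composition and handling in the member differences was not tested. In whole-tissue RNA, fewer cells of a type and less RNA per cell cannot be told apart.

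Across all 12640 genes that reached 1 FPKM in at least 3 libraries, limma called 0 genes at an adjusted p under 0.05, or 0% of those tested. At an unadjusted p under 0.05 there were 630, and the smallest adjusted p was 0.669. That unadjusted count was 1726 without Nat10 d/d replicate 2, 1403 without Nat10 d/d replicate 3, and between 352 and 472 when any of the other 4 libraries was left out. The 2 groups did not overlap in 10.7% of tested genes, with 6.12% higher and 4.6% lower in Nat10 d/d. Of the 7 members, 5 passed the low-value filter, and 1 of these 5, Cdkn1a, did not overlap between the groups. Since this contrast was in view when the family was proposed, nothing is read from that count.

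Cdkn1a (ENSMUSG00000023067; mm10 chr17:29090976-29100727, plus strand) encodes p21, which inhibits cyclin-CDK complexes and binds the replication clamp PCNA. Its level was 3.68, 7.23 and 6.27 FPKM in Nat10 f/f replicates 1 to 3 and 33.9, 116 and 43.4 FPKM in Nat10 d/d replicates 1 to 3. Every deleted library lay above every control, and Nat10 d/d replicate 2 was far above the other deleted libraries. Mean levels were 5.73 ± 1.83 FPKM (SD, n = 3) in controls and 64.4 ± 44.9 FPKM (SD, n = 3) after deletion, a ratio of 11.2. The log2 difference was 3.11 (SE 0.44) and ranked 1 of 12640 among tested genes. Without Nat10 d/d replicate 2, the deleted mean was 38.6 FPKM, the ratio was 6.74 and the log2 difference was 2.59.

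**Figure D1:**
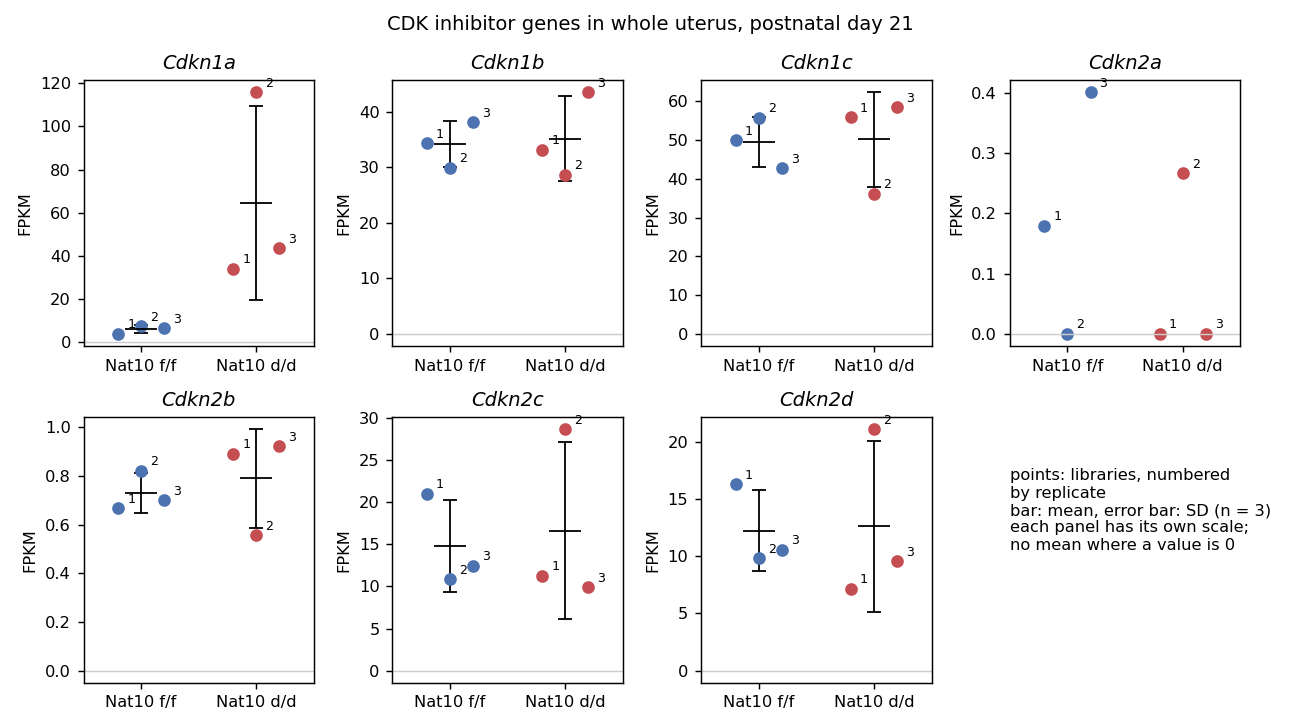
FPKM of each CDK inhibitor (vertical axis, one scale per panel) in 3 Nat10 f/f and 3 Nat10 d/d libraries. Points are libraries labelled by replicate, and bars give the group mean and SD, left out where a value is 0. The Cdkn1a groups do not overlap, and those of the other 6 members do.

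Because Cdkn1a is a p53 target, the sequence before its transcription starts is shown. RefSeq (GRCm38.p6, the mm10 assembly) gives Cdkn1a 2 start windows whose starts lie 2790 bases apart. The sequence shown for the upstream start, which lies at position 29090979, is chr17:29090729-29090975, plus strand. It holds the first 247 of the 250 bases before that start and ends 3 bases short of it. The 250 bases before the downstream start are chr17:29093519-29093768, plus strand. Capitals mark a pair of adjacent p53 half-sites in the upstream sequence and GC boxes (GGGCGG) in the downstream sequence, both read 5′ to 3′.
Cdkn1a upstream start: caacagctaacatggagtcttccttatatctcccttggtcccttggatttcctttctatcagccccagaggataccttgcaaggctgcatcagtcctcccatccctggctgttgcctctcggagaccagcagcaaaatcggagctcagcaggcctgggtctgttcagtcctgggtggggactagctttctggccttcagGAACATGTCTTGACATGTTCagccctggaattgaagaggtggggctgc
Cdkn1a downstream start: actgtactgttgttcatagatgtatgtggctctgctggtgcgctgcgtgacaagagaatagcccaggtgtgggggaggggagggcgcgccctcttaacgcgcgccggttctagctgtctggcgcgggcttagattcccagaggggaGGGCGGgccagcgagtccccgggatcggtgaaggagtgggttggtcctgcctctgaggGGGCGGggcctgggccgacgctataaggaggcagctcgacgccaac

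The pair of half-sites, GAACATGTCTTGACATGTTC, spans chr17:29090928-29090947, from 51 to 32 bases before the upstream start and beginning 2841 bases before the downstream one. It departs from the p53 half-site pattern at 1 of 20 bases. Such a pair was searched for on both strands with at most 1 mismatch, allowed only outside the central bases of each half-site. Those central bases (C, A or T, A or T, G) had to match. Under that rule a pair was present in 15 of 32851 windows of 250 bases before a start, or 0.0457%. A single half-site with no mismatch was present in 7.13% of windows, and in the Cdkn1a upstream window a separate one, GGACTAGCTT, lies 73 to 64 bases before the start. GC boxes occur in 32.7% of windows, and the 2 of the downstream Cdkn1a window lie 104 to 99 and 46 to 41 bases before the start. These are letter matches in a reference sequence, and no factor binding was measured. The search for a pair was added after the Cdkn1a values were known.

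Cdkn1b (ENSMUSG00000003031; chr6:134920401-134925513, plus strand) encodes p27, which holds cyclin E and cyclin A complexes inactive in resting cells. It stood at 34.4, 29.9 and 38.1 FPKM in Nat10 f/f replicates 1 to 3 and at 33.1, 28.7 and 43.6 FPKM in Nat10 d/d replicates 1 to 3. The groups overlapped, with both the lowest and the highest library in the deleted group. Means were 34.1 ± 4.11 FPKM in controls and 35.1 ± 7.63 FPKM after deletion (SD, n = 3 each), and the log2 difference was 0.03 (SE 0.17).

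Cdkn1c (ENSMUSG00000037664; chr7:143458339-143461050, minus strand) encodes p57, the inhibitor expressed from the maternal allele in many embryonic tissues. Its levels were 49.97, 55.7 and 42.8 FPKM in Nat10 f/f replicates 1 to 3 and 55.9, 36.1 and 58.5 FPKM in Nat10 d/d replicates 1 to 3. Nat10 d/d replicate 2 was the lowest of all 6 libraries, and replicates 1 and 3 were the highest. Group means were 49.5 ± 6.49 and 50.2 ± 12.2 FPKM (SD, n = 3 each), with a log2 difference that rounds to -0.00 (SE 0.20). Without Nat10 d/d replicate 2 the remaining deleted libraries lay above all controls and the log2 difference was 0.21. In that smaller comparison 17.4% of tested genes were higher without overlap and 14.4% lower.

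Among the INK4 genes, Cdkn2c (ENSMUSG00000028551; chr4:109660876-109667189, minus strand) encodes p18. It stood at 20.99, 10.8 and 12.4 FPKM in Nat10 f/f replicates 1 to 3 and at 11.2, 28.7 and 9.92 FPKM in Nat10 d/d replicates 1 to 3. The groups overlapped, with Nat10 d/d replicate 2 highest and Nat10 f/f replicate 1 next. Means were 14.7 ± 5.46 and 16.6 ± 10.5 FPKM (SD, n = 3 each), for a log2 difference of 0.06 (SE 0.40). The difference changed sign to -0.39 when Nat10 d/d replicate 2 was left out.

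Cdkn2d (ENSMUSG00000096472; chr9:21288410-21291407, minus strand) encodes the INK4 protein p19, which is unrelated to Arf. Levels were 16.3, 9.83 and 10.6 FPKM in Nat10 f/f replicates 1 to 3 and 7.15, 21.1 and 9.58 FPKM in Nat10 d/d replicates 1 to 3. The order of libraries resembled that of Cdkn2c, with Nat10 d/d replicate 2 highest and Nat10 f/f replicate 1 next. Means were 12.2 ± 3.53 and 12.6 ± 7.46 FPKM (SD, n = 3 each), and the log2 difference was -0.06 (SE 0.36). Without Nat10 d/d replicate 2 both remaining deleted libraries lay below every control, with a log2 difference of -0.48.

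Of the 6 members with a promoter window, Cdkn2c and Cdkn2d were those whose windows held the E2F-type letters GGCGGGA. Cdkn1c had no window and was not searched. These letters occur in 9.75% of windows searched on both strands. E2F factors are the transcription factors released when CDKs phosphorylate Rb. The 30 bases around each match, 5′ to 3′ on the gene's strand with the match in capitals, are chr4:109666891-109666920, minus strand, and chr9:21291391-21291420, minus strand.
Cdkn2c: gcgagagggcaGGCGGGAgcgccagcgaac
Cdkn2d: tattcccagcaGGCGGGActaatggaggtc
The Cdkn2c match lies 153 to 147 bases before the first of its 2 RefSeq starts, and the window of the second start held 0 matches. The Cdkn2d match lies 200 to 194 bases before its RefSeq start. By the gene spans given above, the Cdkn2c match lies inside the annotated gene and the Cdkn2d match overlaps the gene's first bases. The Cdkn2d window also holds a p53 half-site, GGGCTTGCCT.

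The 2 members of the Cdkn2a-Cdkn2b locus on chromosome 4 were near the lower end of the scale and did not pass the filter. Cdkn2a (ENSMUSG00000044303; chr4:89274471-89294653, minus strand), whose row pools the transcripts of p16 and Arf, was listed at 0.180, 0 and 0.402 FPKM in Nat10 f/f and at 0, 0.267 and 0 FPKM in Nat10 d/d replicates 1 to 3. Cdkn2b (ENSMUSG00000073802; chr4:89306299-89311039, minus strand), which encodes p15, a cell cycle inhibitor induced by TGF-beta, was at 0.669, 0.822 and 0.6997 FPKM in Nat10 f/f and at 0.892, 0.558 and 0.924 FPKM in Nat10 d/d replicates 1 to 3. The groups overlapped for both. The Cdkn2b overlap rested on Nat10 d/d replicate 2, since replicates 1 and 3 lay above every control, at 1.24 times the control mean. Total read depth is unknown, so no counting limit can be given for these values.

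In controls, members ranked from highest to lowest mean level as Cdkn1c, Cdkn1b, Cdkn2c, Cdkn2d, Cdkn1a, Cdkn2b and Cdkn2a. The ranges of neighbours in that order overlapped for Cdkn2c and Cdkn2d alone. In the deleted group Cdkn1a came first, followed by the other members in the same order. Ranges there overlapped between Cdkn1a and Cdkn1c, Cdkn1c and Cdkn1b, and Cdkn2c and Cdkn2d. The first place of Cdkn1a rested on Nat10 d/d replicate 2, since in replicates 1 and 3 Cdkn1c was higher.

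Summed over the 3 Cip/Kip genes, levels were 88.0, 92.9 and 87.2 FPKM in Nat10 f/f replicates 1 to 3 and 122.9, 180.8 and 145.4 FPKM in Nat10 d/d replicates 1 to 3. Cdkn1a supplied 4.19%, 7.79% and 7.19% of that sum in Nat10 f/f replicates 1 to 3, against 27.5%, 64.2% and 29.8% in Nat10 d/d. Without Cdkn1a the sums were 84.3, 85.7 and 80.9 FPKM in controls and 89.1, 64.8 and 102.0 FPKM after deletion, so they overlapped. That overlap rested on Nat10 d/d replicate 2 (64.8), since replicates 1 and 3 lay above every control. Cdkn2 sums were 38.1, 21.5 and 24.1 FPKM in controls and 19.3, 50.6 and 20.4 FPKM after deletion, and these overlapped through Nat10 d/d replicate 2, with replicates 1 and 3 below every control.

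**Figure D2:**
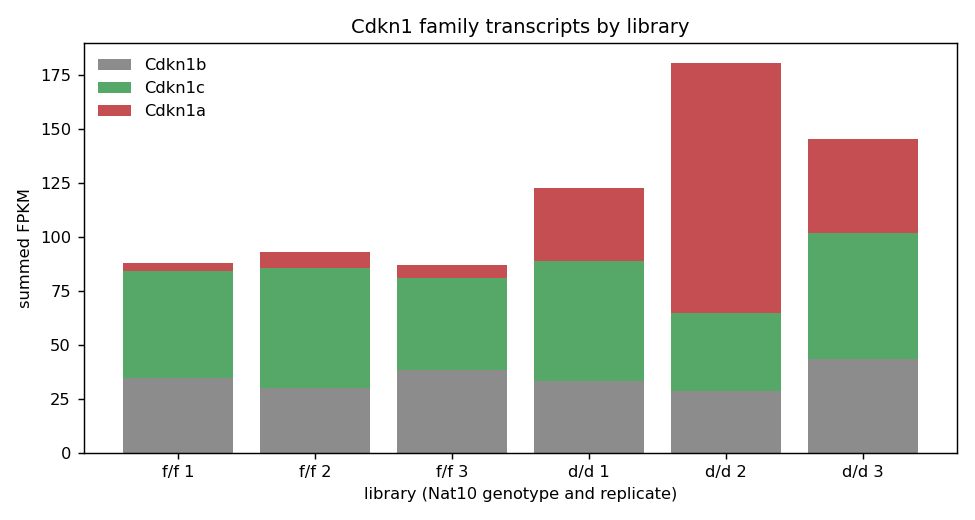
Stacked bars of the FPKM of Cdkn1a, Cdkn1b and Cdkn1c (vertical axis, from 0) in each of the 6 libraries. The sum runs from 87.2 to 92.9 FPKM in controls and from 122.9 to 180.8 FPKM after deletion, and the Cdkn1a segment is larger in every deleted library than in any control.

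Cdkn2c and Cdkn2d varied together across the 6 libraries, with a Pearson r of 0.94 on the log2 scale, and their ratio stayed between 1.04 and 1.57. Over the 5 libraries other than Nat10 d/d replicate 2 that r was 0.857. Cdkn1c tended to be lower where Cdkn2c (r = -0.789) and Cdkn2d (r = -0.762) were higher, and much of this rested on Nat10 d/d replicate 2, without which r was -0.429 and -0.41. These are descriptions over 6 libraries of 2 genotypes, in which the genes of a library share its scaling and depth.

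The members were then set against proliferation, taken in each library as the median of the 19 tested proliferation genes, relative to the control mean. This relation was chosen after the values had been seen. The index was 0.47, -0.66 and -0.03 in Nat10 f/f replicates 1 to 3 and -0.87, 1.61 and -1.24 in Nat10 d/d replicates 1 to 3, so the groups overlapped and Nat10 d/d replicate 2 was highest. For the tested members 5 relations were computed over the 6 libraries, and they are given as descriptions without p-values. Cdkn2c was higher where the index was higher (Pearson r = 0.963, Spearman rho = 0.943). Cdkn2d, which varied with Cdkn2c, followed the same order (r = 0.921, rho = 0.943). Leaving out the libraries farthest from the median index, Nat10 d/d replicates 2 and 3, gave r = 0.894 for Cdkn2c and 0.939 for Cdkn2d over 4 libraries. Leaving out Nat10 d/d replicate 2 alone gave 0.901 and 0.809.

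Cdkn1c was lower where the index was higher (r = -0.91, rho = -0.943). Its r was -0.744 without Nat10 d/d replicate 2 and -0.638 without Nat10 d/d replicates 2 and 3. Within the 3 controls r was -0.469, and within the 3 deleted libraries it was -0.999. For Cdkn1b r was -0.576 and rho -0.543, with r at -0.246 without Nat10 d/d replicate 2 and at 0.55 without both libraries. For Cdkn1a r was 0.196 and rho -0.143, with r at -0.896 without Nat10 d/d replicate 2 and at -0.822 without both libraries. The pooled Cdkn1a value mixes groups at separate levels, with r = -0.93 over the 3 controls and 0.953 over the 3 deleted libraries.

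**Figure D3:**
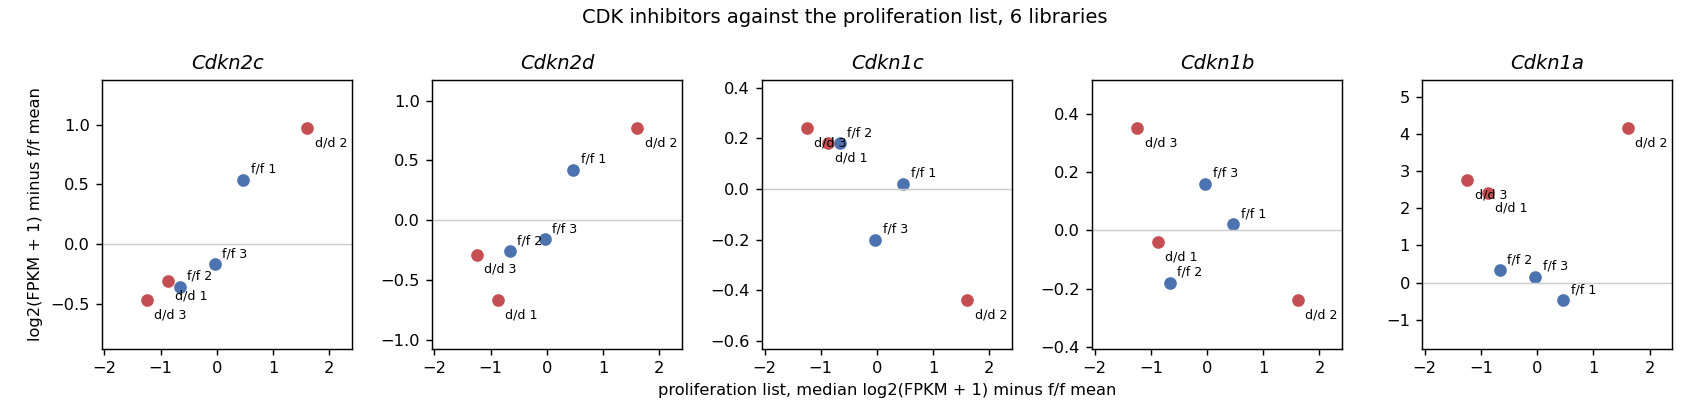
Each panel plots a member's log2(FPKM + 1) relative to the control mean (vertical axis) against the proliferation index, the median of 19 genes on the same scale (horizontal axis), with 1 labelled point per library, blue for Nat10 f/f and red for Nat10 d/d. Cdkn2c and Cdkn2d lie along a rising line and Cdkn1c along a falling one, whereas for Cdkn1a the 3 deleted libraries lie above the 3 controls at every index.

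The list of p53 regulators and targets other than Cdkn1a had 29 tested genes of 30. Of these, 25 had a log2 difference above 0 and 4 below 0 (27 and 2 by mean FPKM), 13 were higher without overlap, 0 were lower without overlap and 0 passed the limma test. Over all 12640 tested genes, 7154 had a log2 difference above 0, 6.12% were higher without overlap and 4.6% lower. The list's median log2 difference was 0.41, beside 0.03 over all tested genes. The median was 0.30 without Nat10 d/d replicate 2, with 16 genes higher and 1 lower without overlap, beside 17.4% higher and 14.4% lower over all tested genes. The list was drawn up with earlier results of these libraries known and is not independent evidence of its direction.

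The 3 largest differences in that list were those of Trp53inp1, Fas and Phlda3. Trp53inp1, which encodes a p53-induced nuclear protein, stood at 21.7, 13.5 and 20.4 FPKM in Nat10 f/f and at 24.6, 51.2 and 36.0 FPKM in Nat10 d/d replicates 1 to 3 (log2 difference 0.94). Fas, the death receptor, stood at 3.87, 2.86 and 6.15 FPKM in controls and at 7.87, 10.4 and 6.84 FPKM after deletion (0.85). Phlda3, an inhibitor of Akt signalling, stood at 38.5, 48.4 and 32.5 FPKM in controls and at 51.8, 118 and 57.8 FPKM after deletion (0.84). All 3 were without overlap, and each was highest in Nat10 d/d replicate 2. Trp53 itself, which encodes p53, was at 63.0, 65.3 and 67.6 FPKM in controls and at 55.2, 83.1 and 52.9 FPKM after deletion. Its groups overlapped, with a log2 difference of -0.07. The Cdkn1a difference of 3.11 lay above that of every other tested gene of the list.

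Genes through which the inhibitors act were read beside the 10.7% of all tested genes without overlap. Of the 12 CDKs and cyclins, 0 passed the limma test and 0 separated the groups, a count near that share for a list of this size. Log2 differences were above 0 for 5 and below 0 for 7, with a median of -0.03. By mean FPKM the split was 9 higher and 3 lower, so the majority depends on the scale. Without Nat10 d/d replicate 2 the median was -0.53 and 8 of the 12 were lower without overlap, beside 14.4% of all tested genes. The largest differences were those of Ccnb2 (-0.68), Ccnb1 (-0.35) and Ccna2 (-0.35), which encode cyclins of S phase and mitosis. Ccnb2 stood at 9.14, 2.67 and 8.07 FPKM in controls and at 0.618, 22.5 and 1.14 FPKM after deletion, so that Nat10 d/d replicate 2 was the highest and the other deleted libraries the lowest of the 6. Among 13 tested Rb and E2F genes of 15, 9 had a log2 difference above 0 and 4 below 0 (11 and 2 by mean FPKM). Of these 13, 0 separated the groups, again near the 10.7% of all tested genes for so short a list. Their median was 0.03 with all libraries. With Nat10 d/d replicate 2 left out it was -0.14, with 1 gene higher and 2 lower without overlap, beside 17.4% and 14.4% of all tested genes. Lin54 (0.23), E2f5 (0.23) and Rbl1 (0.15) had the largest differences.

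Of the 19 tested proliferation genes, 0 separated the groups with all libraries, beside 10.7% of all tested genes. In a list of this size that count is near the share, and the median was -0.04. Log2 differences were above 0 for 9 and below 0 for 10 of them, whereas by mean FPKM all 19 were higher in Nat10 d/d, so the direction depends on the scale. Without Nat10 d/d replicate 2 all 19 had a log2 difference below 0, 14 of them without overlap beside 14.4% of all tested genes, and the median was -0.87. The largest differences with all libraries were those of Kif11 (-0.37), Top2a (-0.34) and Tpx2 (-0.34), genes of the mitotic spindle and of DNA decatenation. Top2a stood at 18.2, 4.72 and 11.7 FPKM in controls and at 3.70, 48.5 and 1.95 FPKM after deletion. Cdkn1a was thus high both in the deleted library with the highest level of these genes and in the 2 with the lowest. The part of proliferation in the member differences was not tested.

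**Figure D4:**
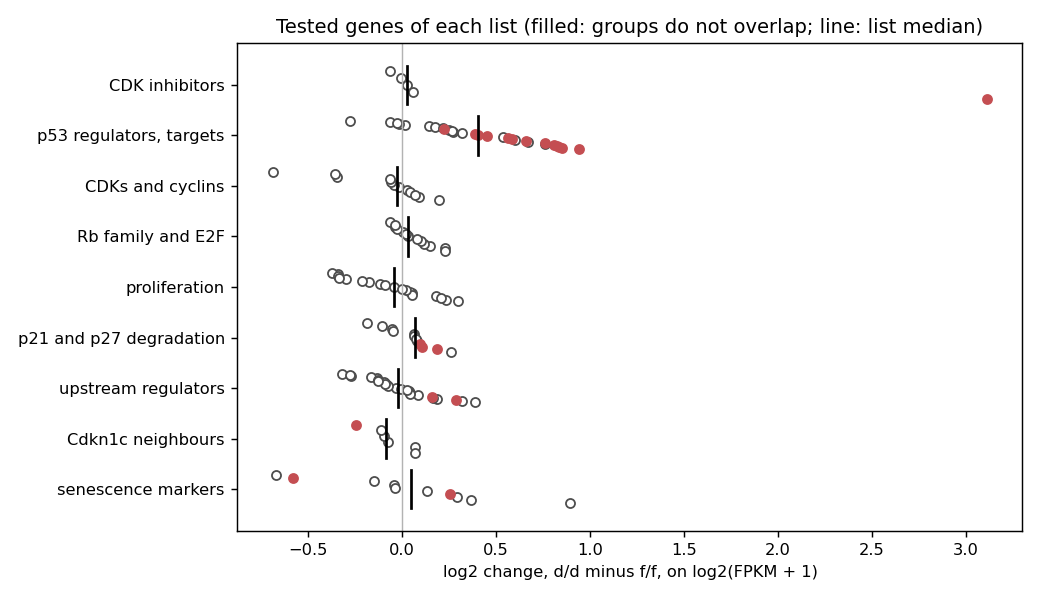
Log2 differences (Nat10 d/d minus Nat10 f/f, on log2(FPKM + 1)) of the 5 tested CDK inhibitors and of the tested genes of each pathway list, with 1 point per gene, filled where the groups do not overlap, and a line at the median. Cdkn1a lies at 3.11, the p53 list lies mostly above 0 with a median of 0.41, and the medians of the other pathway lists drawn lie between -0.09 and 0.07.

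Ubiquitin ligase subunits and partners that degrade p21 or p27 included 12 tested genes, 8 with a log2 difference above 0 and 4 below 0 (9 and 3 by mean FPKM), and a median of 0.07. Cul4b, Ubac1 and Uhmk1 were higher without overlap and 0 were lower without overlap, beside 6.12% and 4.6% of all tested genes. Leaving out Nat10 d/d replicate 2 gave 3 higher and 3 lower without overlap, beside 17.4% and 14.4%. Cul4b, a scaffold of the ligase that removes p21 in S phase, stood at 19.3, 16.7 and 16.7 FPKM in controls and at 20.7, 19.4 and 20.1 FPKM after deletion (log2 difference 0.19). Rbx1, the RING subunit, had a difference of 0.26 and Usp19, a deubiquitinase, of -0.18, both with overlap. Among 26 transcription factors and chromatin regulators of CDK inhibitor genes, 12 had a log2 difference above 0 and 14 below 0, with a median of -0.02. By mean FPKM the split was 14 higher and 12 lower. Bmi1, a Polycomb repressor of the Cdkn2a locus, and Id1 were the 2 of the 26 without overlap, both higher in Nat10 d/d, a share near the 10.7% of all tested genes. Leaving out Nat10 d/d replicate 2 gave 6 higher and 0 lower without overlap, beside 17.4% and 14.4% of all tested genes. Cbx8 (0.39), Ezh2 (0.32) and Myc (-0.32) had the largest differences, each with overlap.

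Neighbours of Cdkn1c in its imprinted domain included 6 tested genes, 2 with a log2 difference above 0 and 4 below 0, and a median of -0.09. Osbpl5, which encodes a lipid-transfer protein, was lower without overlap, at 36.3, 36.9 and 38.4 FPKM in controls and 33.9, 30.1 and 30.1 FPKM after deletion (log2 difference -0.24). This is 1 gene of 6, beside 4.6% of all tested genes lower without overlap. Cd81 (-0.11) and Slc22a18 (-0.10) overlapped. With Nat10 d/d replicate 2 left out, 3 of the 6 were lower without overlap, beside 14.4% of all tested genes, and the median was -0.16. Mtap was the 1 tested neighbour of Cdkn2a and Cdkn2b, with a log2 difference of 0.08.

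Of 15 genes used as markers of senescence, a lasting cell cycle arrest in which p21 and p16 take part, 10 were tested, with 5 log2 differences above 0 and 5 below 0 (6 and 4 by mean FPKM), and a median of 0.05. The median was -0.14 without Nat10 d/d replicate 2. Plaur was higher and Igfbp3 lower without overlap, 1 gene of 10 in each direction beside 6.12% and 4.6% of all tested genes. Those counts were 1 higher and 3 lower when Nat10 d/d replicate 2 was left out, beside 17.4% and 14.4%. Igfbp3, an insulin-like growth factor binding protein, stood at 506, 511 and 706 FPKM in controls and at 463, 235 and 503 FPKM after deletion (log2 difference -0.58). Igfbp5 (-0.67) and Ccl2 (0.89), the latter a chemokine at 3.33 FPKM or less in all libraries, overlapped. The secreted factors Il6, Il1a and Cxcl2 were at 0.236 FPKM or less in every library. Cxcl1, also below the filter, stood at 0.0862, 0.106 and 0.0965 FPKM in controls and at 1.49, 0.512 and 0 FPKM after deletion.

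The genes whose profiles over the 6 libraries were most like each tested member were ranked by Pearson r on the log2 scale, as a description. For Cdkn1a they were Gnai1 (0.995), Enho (0.984), Mogat2 (0.98), Ppcs (0.979) and Ogg1 (0.97). Enho, which encodes the peptide adropin, stood at 5.11, 5.62 and 4.70 FPKM in controls and at 8.31, 12.4 and 9.31 FPKM after deletion. For Cdkn1b the leading genes were Ssh2 (0.992), Myo1f, Neurl2, Lhfp and Zfp395 (0.984), and for Cdkn1c Usf3, Zfp112, Camk2a, Riok1 and Pja2 (0.987). For Cdkn2c they were Xrcc2 (0.99), Rb1 (0.989), BC055324, Rps2-ps6 and Foxm1 (0.987). Foxm1, a transcription factor of late cell cycle genes, stood at 5.17, 1.39 and 2.71 FPKM in controls and at 1.44, 9.36 and 1.10 FPKM after deletion. Rps2-ps6 is a pseudogene whose reads could come from its parent gene. For Cdkn2d they were Tbc1d5 (0.992), Acadvl, Gps2, Zfp41 and Ints3 (0.984). With 12640 genes and 6 libraries, values of this size were reached for every tested member. The ranking uses all 6 libraries and was not repeated without Nat10 d/d replicate 2.

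In GENCODE M21, AC167363.2 overlaps exons of Cdkn1a and Gm44732 exons of Cdkn1c on the opposite strand, and neither is listed in the data. Use of strand in the quantification is not given in the sources used here, so reads of such a partner cannot be told apart from those of the member.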

How the data were processed

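Poly(A) RNA of whole uterus was measured in 6 libraries, grouped and numbered from the sample titles. The deposited values are FPKM made by the authors, a unit inferred from the values, since no header names it. HISAT2 2.2.1, Cufflinks 2.2.1 and mm10 are named in the submitters' processing notes. Annotation, strand use and total read counts are not given in the sources used here. Libraries were joined by Ensembl identifier and compared as log2(FPKM + 1) with limma 3.58.1 in R 4.3.3 (mean-variance trend, group as the term, Benjamini-Hochberg adjustment, threshold 0.05). Genes at 1 FPKM or more in at least 3 libraries were tested, 12640 of 20637. The fit was tested on simulated data. Loci come from GENCODE M21 and promoter windows from RefSeq (GRCm38.p6). Windows were held for 6 of the 7 members, all but Cdkn1c, and motifs were searched in Python 3.11.15. The text names every member, Nat10, the 3 genes of each list with the largest absolute log2 difference and the 5 genes most like each tested member. Other named genes, such as Trp53 and those without overlap, were chosen after their values were seen. Members and lists were chosen with earlier results of these data known. Alternatives covered scaling, pseudocount, filters, trend, the replicate block and leaving out each library, and array quality weights were added after seeing the data. A count test was planned had the files held counts and was not run.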

Additional observations from a re-analysis of the deposited data

How the results depend on the processing

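The Cdkn1a log2 difference was positive under all 12 alternatives, from 2.59 to 3.46. The other tested members lay near 0 in the main fit. They kept their sign in 6 (Cdkn1b), 8 (Cdkn1c), 8 (Cdkn2c) and 9 (Cdkn2d) of 12 alternatives, within -0.63 to 0.33. Cdkn2d was at -0.63 with array quality weights and at -0.48 without Nat10 d/d replicate 2, and Cdkn2c was at -0.39 without that library. No member moved by more than its SD between replicates, a spread that includes Nat10 d/d replicate 2. limma called 0 genes in the main comparison. Leaving out each library gave 0 to 12 called genes, with 12 (4 higher) without Nat10 d/d replicate 2, and Nat10 differences of -1.28 to -0.95. Array quality weights, added after seeing the data, gave 316 called genes, 147 of them higher, and called Nat10 (-1.09, adjusted p = 0.0386 in limma, against 0.669). These weights were lowest for Nat10 d/d replicates 2 (0.2242) and 3 (0.4511). The cause was not tested. With the replicate number as a block, 0 genes were called (726 at an unadjusted p under 0.05). Same-numbered libraries deviated from their group means with r = -0.341, -0.029 and 0.1. With 3 libraries a group, these values cannot decide whether the numbers pair the libraries. Cdkn2a and Cdkn2b did not pass the filter, so no fitted alternatives are given for them. Total read depth is unknown, and 3 libraries a group limit the precision of every value.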
